A study of Mus musculus with 6 samples.

Results

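The genes described here encode the subunits of the mitochondrial respiratory chain and of ATP synthase, with the complex I assembly factors that share the Nduf name. They were taken by symbol from the array's platform annotation: every symbol starting with Nduf, Uqcr or Atp5, the Cox4 to Cox8 symbols with a letter or i suffix, and Sdha, Sdhb, Sdhc and Sdhd. The rule found 189 probe sets and 90 genes, of 18193 genes that had a probe set of their own on the array. Of these probe sets 10 carry several gene symbols and were left out of all counts of genes. The filter on low values (intensity above 16 on at least 3 arrays) kept 89 of the 90 genes and left out Ndufa4l2, at 11.6, 8.6 and 38.9 in the ICAM1-negative sorts and 27.8, 12.6 and 11.1 in the ICAM1-positive sorts.

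The study sorted cells of the olfactory epithelium of CD1 mice, an outbred stock, on a cytometer after staining for ICAM1 (CD54), a surface adhesion protein. Each of 3 litters, at postnatal day 21 (litter 1), 22 (litter 2) and 24 (litter 3), gave 1 ICAM1-positive and 1 ICAM1-negative sort. Each sort was measured on 1 array after 2 rounds of RNA amplification, which makes 3 arrays a group and 6 in all. The labels name no allele or treatment, a sample pools the cells of a litter, and litter and age cannot be told apart. Values are scaled linear intensities of probe sets, which can be compared between arrays for 1 probe set but not between probe sets. Differences are the mean log2 intensity of ICAM1-positive arrays less that of ICAM1-negative arrays, with the standard error of limma's fit, and "rose" and "fell" are used for an adjusted p (Benjamini-Hochberg, over all 38694 probe sets kept) under 0.05.

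The sort antigen followed the sample titles. Icam1 was at 13.0, 16.1 and 33.2 in ICAM1-negative cells of litters 1 to 3 and at 7246.5, 6817.2 and 6857.1 in ICAM1-positive cells, whereas the free-text sample descriptions name the opposite population. Of 8 horizontal basal cell markers (reserve stem cells of this epithelium), of which Icam1 itself is 1, all 8 rose in ICAM1-positive cells, and their summed intensity went from a range of 670.2 to 1067 to a range of 86640 to 90700. Of the markers of mature olfactory neurons 5 of 6 fell (summed range 58850 to 74600 against 4341 to 9008) and Cngb1 lay below the array median on all arrays. Those of immature neurons fell in 6 of 6 genes (39070 to 52420 against 4772 to 6798), and those of ciliated cells in 5 of 5 (5171 to 5935 against 435.3 to 646.7). Macrophage markers rose in 8 of 8 genes (1345 to 1798 against 18520 to 23170). Globose basal cell and precursor markers fell in 3 of 5 genes. Bowman gland markers rose in 3 of 4, while the other had a log2 difference of -2.23 and did not pass. Sustentacular markers rose in 2 of 5, while the other 3 lay below 0 without passing, and the median was -0.29. Erythroid markers fell in 2 of 2, and 0 of 5 endothelial markers changed, all 5 lying below the array median on every array. Of 3 markers of muscle and brown fat, 1 (Ucp1) rose, and Ckm and Ucp1 lay below the array median on all arrays. The groups therefore differed in cell type throughout, fewer cells of a type and less RNA per cell cannot be told apart in these bulk samples, and the part of cell make-up in each result on the respiratory chain was not tested.

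Complexes I and II of the inner mitochondrial membrane take electrons from NADH and from succinate and pass them to ubiquinone. Complex III hands them to cytochrome c, and complex IV, cytochrome c oxidase, passes them to oxygen. Complexes I, III and IV pump protons across the membrane, and ATP synthase (complex V) uses the return flow of protons to make ATP. Most subunits are encoded in the nucleus and a small set in mitochondrial DNA. Olfactory neurons, the most numerous cells of this epithelium, spend ATP on ion pumping, transmitter release and the signalling of their cilia, and horizontal basal cells are mostly quiescent until injury.

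Most respiratory chain transcripts did not pass the test between the sorts. Of the 89 genes measured, each on the brightest probe set of its own, 19 fell, 1 rose and 69 did not pass the test. Among all 16399 genes 41.4% passed (20.8% lower and 20.6% higher), against 22.5% of the respiratory chain genes (21.3% lower and 1.12% higher). The share that fell was thus close to that of all genes, and the share that rose was below it. The first of these readings depended on the variance model: with an intensity trend 31 genes (34.8%) fell and 2 rose, against 24.2% and 22.9% of all genes. The median log2 difference of the 89 genes was -0.21, and that of all genes was -0.06. The median absolute difference was 0.32, against 0.73 for all genes and 0.56 for the 3365 genes whose representative probe sets were at least as bright as the lower quartile of the respiratory chain genes. Differences ran from -2.20 to 2.04, 58 lying below 0 and 31 above it, and 10 genes passed the test with a change of at least 2-fold, against 32.5% of all genes.

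**Figure D1:**
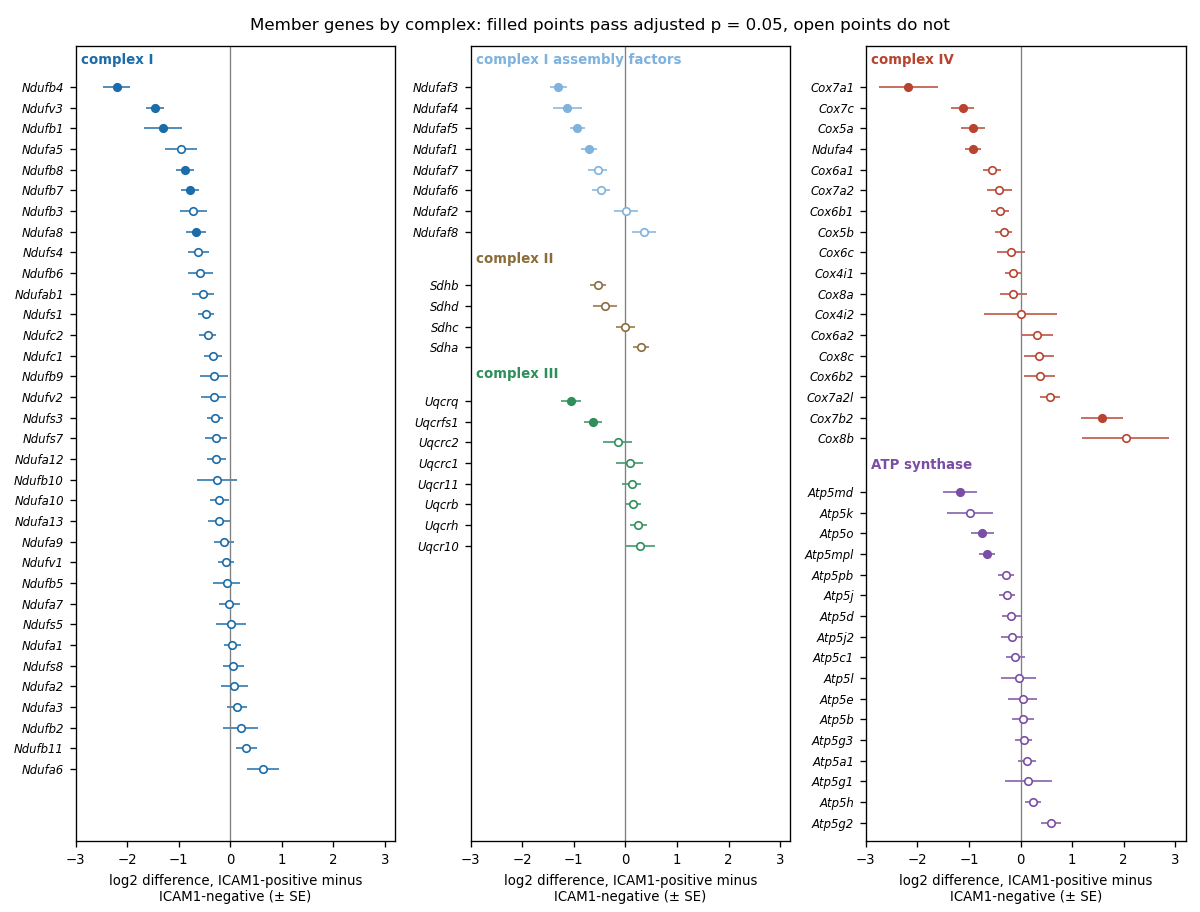
Log2 difference (ICAM1-positive minus ICAM1-negative, horizontal axis) with its standard error for each of the 89 genes, grouped by complex; filled points pass an adjusted p of 0.05. Filled points lie on the left in each complex that has any, except Cox7b2 in complex IV, and complex II has none.

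The median was below 0 in each litter and nearest to 0 in litter 1. The median difference of the 89 genes was -0.14 in litter 1, -0.29 in litter 2 and -0.26 in litter 3. The litter medians were 0.15, -0.17 and 0.01 in complex III and -0.01, -0.13 and -0.11 in ATP synthase. In 53 genes the ICAM1-positive array was the lower of the pair in all 3 litters, and in 15 it was the higher in all 3; among all genes the shares were 38.7% and 34.9%. The 3 ICAM1-positive values lay entirely below the 3 ICAM1-negative values in 35 genes (30.1% of all genes did so) and entirely above them in 8 (27.8% of all genes).

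**Figure D2:**
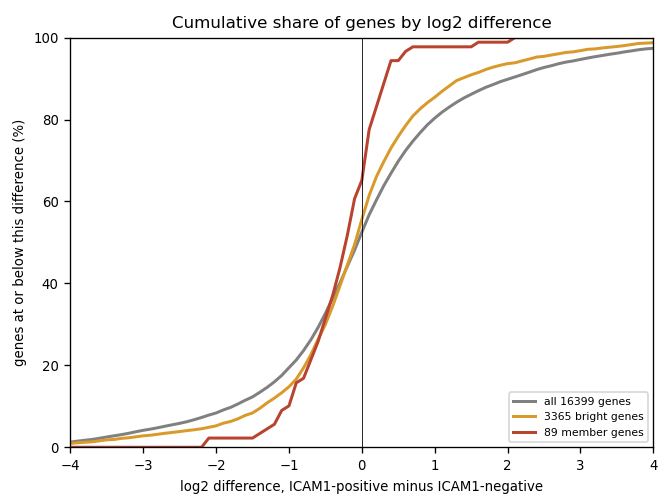
Cumulative share of genes (vertical axis, percent) at or below each log2 difference (horizontal axis) for all 16399 genes, the 3365 bright genes and the 89 respiratory chain genes. The curve of the respiratory chain genes is the steepest and lies to the left of both others above 0; their median is -0.21.

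Complex I, the largest complex and the entry point for NADH, had 34 genes measured. Of these 6 fell, 0 rose and 28 did not pass, with a median difference of -0.29. With the litter as a replicate block 10 passed, of which 9 fell and Ndufa6 rose (difference 0.63 ± 0.31, adjusted p = 0.173 without the block and 0.0405 with it). The genes that fell were all supernumerary subunits, the proteins added around the catalytic core: Ndufb4, Ndufv3, Ndufb1, Ndufb8, Ndufb7 and Ndufa8. Of the 28 supernumerary genes 21.4% fell, close to the 20.8% of all genes. None of the 6 core genes measured passed the test, and 6 genes are too few to set against that share. Their median difference was -0.29, the same as that of the 28 supernumerary genes.

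Ndufv3, a subunit of the NADH-oxidising module, measured 6800.5, 8734.7 and 7960.0 in ICAM1-negative cells and 2620.2, 3077.3 and 2825.3 in ICAM1-positive cells. It was 2.75-fold lower (log2 difference -1.46 ± 0.18, adjusted p = 0.00188 by limma), with all 3 ICAM1-positive values far below the lowest ICAM1-negative value. Its call held in each of the 9 fits that left out 1 litter or 1 array.

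The Ndufb genes encode subunits of the membrane arm, and 4 of 11 fell, with a median of -0.58. Ndufb8 measured 4972.1, 6423.9 and 5893.8 in ICAM1-negative cells and 3045.6, 3092.1 and 3180.2 in ICAM1-positive cells, a 1.85-fold decrease (-0.88 ± 0.17, adjusted p = 0.011). A dim second probe set of Ndufb8 went the other way (49.1 ± 7.52 against 134.9 ± 20.8, SD, n = 3; log2 difference 1.46 ± 0.21, adjusted p = 0.00329), and Ndufb8 was the 1 gene of the 50 with 2 or more probe sets that was called in both directions. Ndufb7 measured 7392 ± 933 and 4299 ± 188 (SD, n = 3; log2 difference -0.78 ± 0.17, adjusted p = 0.0178). The ICAM1-positive groups of Ndufb7 and Ndufb8 varied little and lay below every ICAM1-negative array.

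Ndufb4 had the lowest difference of all, but on a dim probe set. It measured 202.3, 173.8 and 236.3 in ICAM1-negative cells and 57.2, 32.9 and 45.8 in ICAM1-positive cells, where all 3 values lay below the array median. The log2 difference was -2.20 ± 0.26 (adjusted p = 0.00166) and -1.07 (adjusted p = 0.000584) with values under the array median set to that median. The brighter probe sets that Ndufb4 shares with Ndufb4b and Ndufb4c differed by less: 1 had a log2 difference of -0.65 (adjusted p = 0.0278) and the other -0.69 (adjusted p = 0.0718). Ndufb1 was dim as well, at 144.7, 272.7 and 162.0 against 50.1, 97.8 and 86.9 (-1.30 ± 0.37, adjusted p = 0.0385), and 2 of its ICAM1-positive values lay below the array median.

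Ndufa8, which lies on the intermembrane side of the membrane arm, measured 2643.1, 3602.3 and 3002.8 against 1831.1, 2137.8 and 1860.2 (-0.66 ± 0.19, adjusted p = 0.0433). It was the 1 gene that passed among the 12 Ndufa genes of complex I, whose median was -0.17. Ndufa5, a subunit of the arm that binds ubiquinone, measured 5426.4, 9055.7 and 5482.9 against 2843.1, 4598.5 and 2872.1 (-0.95 ± 0.31, adjusted p = 0.0624). Its litter 2 values were the highest of both sorts, and with the litter as a block its adjusted p was 0.014. It was 0.0342 without litter 2, and the second Ndufa5 probe set fell by 1.21 (adjusted p = 0.0378). Ndufb3 (-0.72, adjusted p = 0.086 without and 0.0245 with the block) and Ndufb6 (-0.58, 0.121 and 0.0416) passed with the block.

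The core of complex I carries the flavin and the iron-sulphur clusters. Ndufv1, which binds the flavin, measured 7883.9, 8151.2 and 8819.8 in ICAM1-negative cells and 7874.9, 7415.0 and 8140.3 in ICAM1-positive cells, and the groups overlapped (-0.08 ± 0.16, adjusted p = 0.723). Ndufs8 measured 4207.5, 6207.4 and 5413.7 against 5096.0, 5764.0 and 5416.9, also overlapping (0.06 ± 0.21, adjusted p = 0.862). Ndufs1, the largest core subunit, came closest to the threshold. Its values were 4178.1, 3948.5 and 3685.1 against 2967.6, 2906.6 and 2674.3, without overlap (-0.47 ± 0.16, adjusted p = 0.0703). Ndufs3 measured 3849.6, 4188.5 and 3947.9 against 3167.7, 3288.7 and 3262.7, again without overlap (-0.30 ± 0.15, adjusted p = 0.186). Ndufs7 (3548.9, 4840.4 and 3876.9 against 2922.7, 3883.7 and 3245.2) and Ndufv2 (5192.2, 8030.4 and 5947.6 against 4403.3, 6150.5 and 4752.7) overlapped between the sorts, with litter 2 highest in both.

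Different probe sets gave different pictures for some complex I genes. The brightest Ndufs4 probe set, for an accessory subunit of the peripheral arm, did not pass (3243 ± 252 against 2125 ± 382, SD, n = 3; -0.62 ± 0.20, adjusted p = 0.0608). A second one measured 1652 ± 130 against 295.8 ± 36.6 (-2.49 ± 0.18, adjusted p = 0.000333), and the other 2 had -1.75 (adjusted p = 0.00571) and -0.45 (adjusted p = 0.248). Ndufa10 had -0.21 on its brightest probe set and -2.12 on a dimmer one (424.6 ± 39.1 against 97.4 ± 9.91, SD, n = 3; adjusted p = 0.000483). A probe set annotated to both Yjefn3 and Ndufa13 had a difference of -3.67, whereas the probe set of Ndufa13 alone had -0.21. Of the 50 genes with 2 or more probe sets, 33 had the same call on each and 17 did not. Some genes that did not pass on their brightest probe set were called on another. Ndufab1 fell on 2 of 5, Ndufc2 on 2 of 4 and Atp5j2, of ATP synthase, on 1 of 3, whereas Ndufa12 rose on 1 of 4.

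Assembly factors of complex I bind intermediates of the complex and are absent from the finished enzyme. Of the 8 Ndufaf genes 4 fell and 0 rose, with a median of -0.62. Ndufaf3 measured 1138.8, 1243.6 and 1274.0 against 465.5, 483.6 and 538.2, which was 2.46-fold lower (-1.30 ± 0.16, adjusted p = 0.00196), and its call held in all 9 fits with a litter or an array left out. Its partner Ndufaf4 measured 2318.6, 2034.7 and 1734.6 against 1293.2, 854.6 and 709.5 (-1.13 ± 0.28, adjusted p = 0.0239), and a second Ndufaf4 probe set had -2.07 ± 0.18 (adjusted p = 0.00055). Ndufaf5, an enzyme that modifies Ndufs7, fell by 0.93 on the log2 scale (1106 ± 42.9 against 579.3 ± 26.1, SD, n = 3; adjusted p = 0.00565). Ndufaf1, which acts on the membrane arm, fell by 0.71 (1337 ± 94.5 against 818.4 ± 32.6, SD, n = 3; adjusted p = 0.018). The ICAM1-positive values lay below all ICAM1-negative values in 6 of the 8 genes, these 4 and also Ndufaf7 and Ndufaf6, against 30.1% of all genes. Ndufaf7 (-0.54, adjusted p = 0.0635), Ndufaf6 (-0.47, 0.0864), Ndufaf2 (0.01, 0.977) and Ndufaf8 (0.36, 0.301) did not pass.

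**Figure D3:**
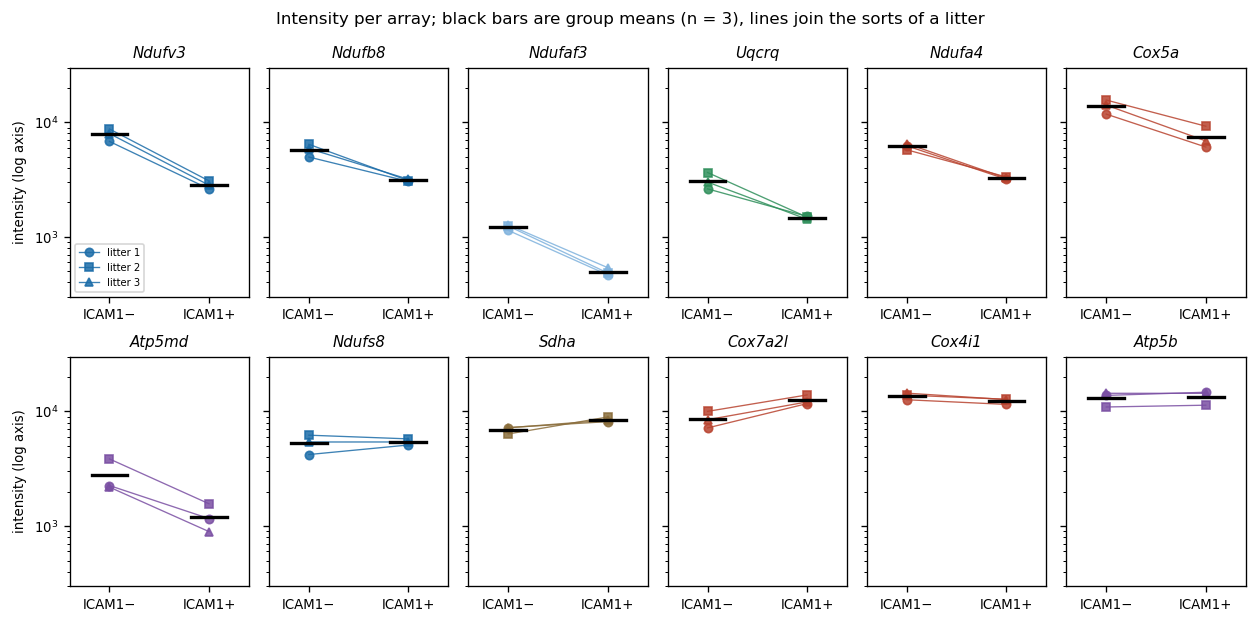
Intensity (log axis) on each array for 12 genes, with litters as symbols joined by lines and group means as bars (n = 3). The 7 genes that fell, from Ndufv3 to Atp5md, have no overlap between sorts, while Ndufs8, Cox4i1 and Atp5b overlap; Sdha and Cox7a2l lie higher in ICAM1-positive cells without passing the test.

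Promoters of 4 of the genes that fell are shown because NRF1 and the ETS factor GABP, also called NRF-2, are known activators of respiratory chain genes, and because their own transcripts differed between the sorts. The sequences are the 250 bases before the annotated start in RefSeq, assembly GRCm38.p6, 5′ to 3′ on the gene's strand. Capitals mark matches, on either strand, to the NRF1 motif (GCGC, any base, then TGCGC) in Ndufb4 and Ndufaf4 and to the ETS motif CCGGAAG in Ndufb7; Ndufv3 has neither. Ndufb4 lies on the minus strand at chr16:37654369-37654618, with matches that begin 191, 79 and 22 bases before the start. Ndufaf4 lies on the plus strand at chr4:24897833-24898082, with 1 match at 113 bases. Ndufb7 lies on the plus strand at chr8:83566508-83566757, with 1 match at 20 bases, and Ndufv3 on the plus strand at chr17:31519865-31520114.
Ndufb4: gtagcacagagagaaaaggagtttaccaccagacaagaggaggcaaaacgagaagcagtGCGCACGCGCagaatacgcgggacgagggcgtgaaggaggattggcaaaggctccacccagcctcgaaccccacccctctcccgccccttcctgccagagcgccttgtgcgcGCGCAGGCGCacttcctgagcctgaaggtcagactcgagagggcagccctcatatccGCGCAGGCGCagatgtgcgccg
Ndufaf4: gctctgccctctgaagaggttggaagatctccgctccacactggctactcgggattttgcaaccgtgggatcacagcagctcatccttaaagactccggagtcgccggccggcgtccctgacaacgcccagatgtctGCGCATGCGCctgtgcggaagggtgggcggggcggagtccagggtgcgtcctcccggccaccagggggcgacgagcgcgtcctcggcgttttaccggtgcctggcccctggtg
Ndufb7: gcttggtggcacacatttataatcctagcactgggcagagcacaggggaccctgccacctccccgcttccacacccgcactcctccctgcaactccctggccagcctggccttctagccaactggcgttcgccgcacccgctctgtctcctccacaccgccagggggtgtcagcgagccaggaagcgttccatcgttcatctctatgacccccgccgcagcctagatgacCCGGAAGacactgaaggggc
Ndufv3: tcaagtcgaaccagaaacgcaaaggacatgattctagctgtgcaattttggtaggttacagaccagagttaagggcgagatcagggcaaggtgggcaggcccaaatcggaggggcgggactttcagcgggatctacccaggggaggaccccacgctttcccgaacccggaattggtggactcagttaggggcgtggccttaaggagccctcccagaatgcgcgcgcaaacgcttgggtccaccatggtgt

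A RefSeq promoter was found for 74 of the 90 genes. The NRF1 motif was present in 12 of the 74 (16.2%) and in 4.23% of 27025 genes with a promoter of the same length, or 3.74% of 32851 promoters. The ETS motif was present in 14 (18.9%), against 7.83% of genes and 6.91% of promoters. Among the genes that fell, 3 of 17 held the NRF1 motif (Ndufa8, Ndufaf4 and Ndufb4) and 2 of 17 the ETS motif (Ndufaf1 and Ndufb7). Among those that did not pass the test, 9 of 56 held the NRF1 motif and 12 of 56 the ETS motif. The GC box GGGCGG was found in 41.9% of the respiratory chain promoters and 35.4% of all genes, and TATAAA in 9.46% and 14.3%. A match is a description of letters and not a binding site.

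Complex II, the 4-subunit succinate dehydrogenase, also serves the TCA cycle and has no subunit encoded in mitochondrial DNA. None of its 4 genes passed the test. Sdhb, the iron-sulphur subunit, measured 6476.9, 6584.6 and 7586.1 in ICAM1-negative cells and 4700.9, 4585.5 and 5021.6 in ICAM1-positive cells, without overlap (-0.53 ± 0.16, adjusted p = 0.0526, and 0.0495 with the replicate block). Sdha, the flavoprotein, measured 7235.8, 6359.5 and 7201.5 against 8152.2, 8943.6 and 8399.8, lying higher in ICAM1-positive cells without overlap (0.30 ± 0.16, adjusted p = 0.215). The other Sdha probe sets had differences below 0: -0.25, which did not pass, and, at a dim level, -1.42 (adjusted p = 0.0284). The membrane anchors Sdhc (1445.7, 1717.7 and 1834.6 against 1446.6, 1783.0 and 1783.9) and Sdhd (3570.8, 2387.2 and 3386.8 against 2544.1, 2005.2 and 2504.3) overlapped between the sorts.

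Complex III had 8 genes measured, of which 2 fell and 0 rose, with a median of 0.10. Uqcrfs1, the Rieske iron-sulphur protein, measured 8410.2, 7654.2 and 9644.0 against 5471.4, 5456.6 and 5609.1, which was 1.55-fold lower (-0.63 ± 0.17, adjusted p = 0.033). Uqcrq, a small subunit, measured 2621.9, 3642.5 and 3004.0 against 1508.5, 1485.4 and 1423.5 (-1.06 ± 0.19, adjusted p = 0.00742). That probe set is one of a kind that can match several transcripts, and the other 3 of Uqcrq, all dim, had -1.12, -0.08 and 0.46 and did not pass. The core proteins had values that overlapped between the sorts: Uqcrc1 measured 4055.2, 3427.1 and 4953.6 against 4901.2, 3292.1 and 5080.1, and Uqcrc2 measured 7229.0, 11977.8 and 7348.1 against 6566.9, 9798.3 and 7261.2. Uqcrb and Uqcrh, small subunits, lay higher in ICAM1-positive cells without overlap but did not pass. Uqcrb measured 20326.9, 22325.4 and 21305.8 against 22481.1, 25743.7 and 22953.7 (0.15, adjusted p = 0.514). Uqcrh measured 5825.4, 5881.2 and 5413.5 against 6444.9, 6872.0 and 7069.8 (0.25, adjusted p = 0.27).

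Complex IV had 18 genes measured, including Ndufa4, which was long counted in complex I. Of these 4 fell, 1 rose and 13 did not pass, with a median of -0.16. Cox5a, a subunit found in all tissues, measured 11773.1, 15625.6 and 14111.0 against 6079.2, 9236.8 and 6868.7, which was 1.89-fold lower (-0.92 ± 0.23, adjusted p = 0.0265). All 3 Cox5a probe sets fell, the other 2 by 0.92 and 0.80 on the log2 scale. Ndufa4 measured 6226.2, 5745.8 and 6511.5 against 3179.6, 3328.0 and 3247.5, also 1.89-fold lower (-0.92 ± 0.16, adjusted p = 0.00617), with little spread in either sort. Cox7c, a small subunit, measured 371.9, 292.9 and 240.4 against 152.4, 123.7 and 135.9 (-1.12 ± 0.22, adjusted p = 0.0114). That probe set is of the kind that can match several transcripts, and the second one of Cox7c had -0.70 and did not pass.

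The brightest probe sets of other complex IV subunits of most tissues had smaller differences, which did not pass. Cox4i1 measured 12652.1, 13887.7 and 14446.2 against 11519.4, 12777.9 and 12695.7, with overlapping sorts (-0.15 ± 0.16, adjusted p = 0.532). Cox5b measured 14580.3, 14963.1 and 16997.0 against 11641.3, 12706.8 and 12608.1, without overlap (-0.33 ± 0.16, adjusted p = 0.176), and 3 of its 6 probe sets fell, by 0.61, by 1.17 and, at a level below the array median on all arrays, by 2.49. Cox6a1 measured 11963.2, 12922.5 and 15135.1 against 8372.3, 9125.4 and 9831.7 (-0.55, adjusted p = 0.0613, and 0.0456 with the block), and its second probe set fell by 1.30. Cox6b1 measured 13044.7, 15213.9 and 15433.4 against 9512.6, 11998.2 and 11624.9 (-0.40, adjusted p = 0.148), and its second probe set fell by 0.69. In both brightest probe sets the ICAM1-positive values lay below every ICAM1-negative value. Cox7a2 measured 11115.4, 15814.0 and 13147.8 against 8296.1, 12437.8 and 9634.2 (-0.41, adjusted p = 0.246), overlapping between the sorts. Cox8a, on a probe set that can cross-hybridise, measured 997.7, 669.3 and 804.2 against 906.4, 568.6 and 782.0, and overlapped too.

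Cox7a2l, which joins complexes III and IV into supercomplexes, went the other way. Its brightest probe set measured 7184.6, 10020.8 and 8473.7 in ICAM1-negative cells and 11713.2, 13941.2 and 12109.4 in ICAM1-positive cells, without overlap (0.57 ± 0.20, adjusted p = 0.0745, and 0.0484 with the block). The other 2 probe sets had 0.61 ± 0.17 (adjusted p = 0.0354) and 0.69 ± 0.23 (adjusted p = 0.0617), so 1 of 3 passed.

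The isoforms of muscle, testis and lung were dim. Cox7a1, the heart and muscle form, measured 84.0, 184.0 and 93.6 against 11.6, 30.5 and 44.0 (-2.18 ± 0.57, adjusted p = 0.0305), and its call was lost with values under the array median set to that median (-0.33, adjusted p = 0.443). Cox7b2, a testis form, was the 1 gene that rose, and the filter kept it through its ICAM1-positive arrays alone. It measured 13.2, 10.4 and 4.7 against 29.1, 21.7 and 27.2 (1.58 ± 0.41, adjusted p = 0.0299). All of these values lay below the array medians, which ran from 87.7 to 102.4, and its adjusted p was 0.998 with values so raised and 0.0513 with the replicate block. Cox4i2, the lung form, also lay below the array median on every array (42.6, 28.8 and 29.3 against 58.8, 10.7 and 57.7). Cox6a2 (71.0, 125.1 and 140.5 against 116.0, 151.5 and 136.8), Cox6b2 (50.1, 90.0 and 71.1 against 77.2, 117.2 and 77.0) and Cox8c (245.2, 130.0 and 224.3 against 270.9, 211.0 and 258.9) overlapped between the sorts. Cox8b, another muscle form, had the highest difference of all genes described here but a wide spread, at 93.7, 54.7 and 10 against 174.5, 194.9 and 104.0 (2.04 ± 0.84, adjusted p = 0.117).

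ATP synthase had 17 genes measured, of which 3 fell and 0 rose, with a median of -0.10. Those that fell were Atp5md and Atp5mpl, small proteins of the membrane part, and Atp5o, the stalk protein that confers sensitivity to oligomycin. Atp5md measured 2255.4, 3851.9 and 2184.8 against 1161.3, 1564.0 and 893.9, which was 2.27-fold lower (-1.18 ± 0.33, adjusted p = 0.0357). Atp5o measured 5130.7, 6336.7 and 6537.6 against 3154.2, 4465.7 and 3232.5 (-0.74 ± 0.22, adjusted p = 0.0449). Atp5mpl fell by 0.65 on the log2 scale (2783 ± 129 against 1770 ± 131, SD, n = 3; adjusted p = 0.0242). Atp5k, a dimer subunit, measured 4074.0, 8603.3 and 5559.5 against 1985.9, 4926.9 and 2617.1. Its sorts overlapped, litter 2 was the highest of both, and its adjusted p was 0.14 without and 0.0169 with the replicate block (-0.98).

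The catalytic head of ATP synthase had small differences. Atp5a1, the alpha subunit, measured 14026.7, 12573.6 and 15170.4 against 15437.0, 14253.8 and 15669.6 (0.12 ± 0.17, adjusted p = 0.619). Atp5b, the beta subunit that holds the catalytic sites, measured 13813.1, 10942.1 and 14406.6 against 14719.0, 11342.4 and 14394.7 (0.05 ± 0.21, adjusted p = 0.885). In both genes the sorts overlapped. The rotor subunits Atp5c1 (11003.8, 13814.7 and 13459.0 against 10837.4, 12649.9 and 12118.3), Atp5d (5468.8, 5852.7 and 7034.2 against 5416.0, 5484.9 and 5180.7) and Atp5e (1594.7, 2676.3 and 1937.2 against 1759.3, 2726.9 and 1862.8) overlapped as well. The standard errors of these 5 genes were 0.17 to 0.28, and differences well above that size could be missed as well. Sdhb, for one, did not pass at -0.53 ± 0.16.

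Subunit c forms the proton-driven ring and is made from 3 genes. Atp5g1 measured 569.8, 1600.6 and 923.6 against 828.1, 1554.0 and 892.9, overlapping (0.15 ± 0.45, adjusted p = 0.832), while its second probe set, below the array median on all 6 arrays, rose with a difference of 1.24 (adjusted p = 0.0121). Atp5g2 measured 1042.6, 1482.6 and 1181.0 against 1755.3, 1975.9 and 1792.7, higher in ICAM1-positive cells without overlap (0.59 ± 0.20, adjusted p = 0.0656). Atp5g3 measured 17018.5, 15582.2 and 18385.5 against 17501.2, 17707.8 and 17975.5, overlapping (0.06 ± 0.16, adjusted p = 0.796). Under quantile normalization the differences of Atp5a1, Atp5b, Atp5g3, Atp5h, Uqcrb and Ndufa1, all close to 0 and not called, changed sign.

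Across all complexes, a list called core subunits here had 24 genes measured. The list is not confined to catalytic proteins and includes Cox4i1, Cox5a, Cox5b, Uqcrb, Uqcrh and Atp5o. Of its genes 3 fell, Uqcrfs1, Cox5a and Atp5o, and its median was -0.15. With each array centred on its median, none of these 3 calls held (adjusted p = 0.059, 0.053 and 0.0906 by limma). All 3 held under quantile normalization (0.0204, 0.00825 and 0.0268) and with the litter as a replicate block (0.0413, 0.0187 and 0.0434). They held in only 1, 3 and 1 of the 9 fits with a litter or an array left out. The 57 other subunit genes had 12 that fell, 1 that rose and a median of -0.21.

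Litters 1 and 2 stood apart in these genes. Litter 2 had the highest intensity in both sorts in 41 of the 89 genes (46.1%), against 20.1% of all genes and 28.9% of the bright genes. Litter 1 had the lowest in both sorts in 47 genes (52.8%), against 15.6% and 22.8%. In complex I litter 2 was highest in both sorts in 23 of 34 genes (67.6%), in ATP synthase in 8 of 17 (47.1%) and in complex IV in 5 of 18 (27.8%, no more than among bright genes). Litter 1 was lowest in both in 22 of 34 (64.7%), 9 of 17 (52.9%) and 10 of 18 (55.6%) of the same genes. Litter 2 exceeded the mean of the other litters in Atp5k by 1.79-fold in ICAM1-negative and 2.14-fold in ICAM1-positive cells. The factors were 1.84 and 1.96 for Ndufb10, a membrane arm subunit, and 2.14 and 1.81 for Atp5g1. Among genes of mitochondrial ribosomal proteins litter 2 was highest in both sorts in 40 of 76 (52.6%), but litter 1 was lowest in both in only 19 (25.0%). Not every part shared the pattern. Litter 2 was highest in both sorts in 2 of the 8 Ndufaf genes, where litter 1 was highest in 4. In complex II litter 2 was highest in both in 0 of 4 genes, and in complex III in 3 of 8. These were shares over genes of the same 6 arrays, with 1 pair of arrays per litter.

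**Figure D4:**
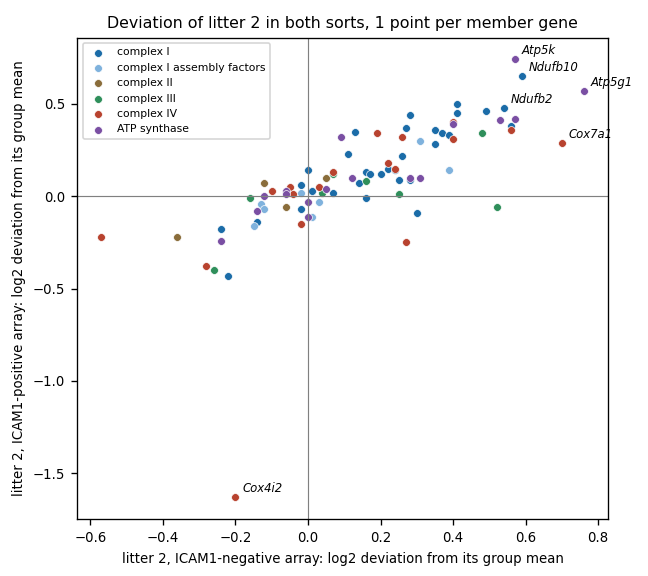
Log2 deviation of the litter 2 array from its group mean in ICAM1-negative (horizontal axis) and ICAM1-positive cells (vertical axis), 1 point for each of the 89 genes, coloured by complex. Most points lie to the upper right of 0, where Atp5k, Ndufb10 and Atp5g1 lie farthest out; Cox4i2, a dim gene, lies lowest, at -0.20 and -1.63.

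With the litter as a replicate block, 25 of the 89 genes (28.1%) fell and 2 rose, against 22.2% and 21.3% of all genes (43.6% in either direction). The block added 8 genes: Ndufa5, Ndufb3, Ndufb6, Sdhb, Cox6a1 and Atp5k fell, and Ndufa6 and Cox7a2l rose. It removed 1, Cox7b2. In fits with 1 litter left out, 16 of the 20 calls were lost without litter 1, 12 without litter 2 and 17 without litter 3. Leaving out a single array lost between 7 and 11 calls. Calls of 3 genes, Ndufb4, Ndufv3 and Ndufaf3, held in all 9 of these fits, and the number of genes that fell ranged from 3 to 14.

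Other mitochondrial genes were counted in the same fit, and in each list of several genes a smaller share passed than the 41.4% of all genes. The shares were 30.3% of mitochondrial ribosomal protein genes, 25.0% of further assembly factors and 25.0% of electron carriers and other inputs. They were 29.4% for the TCA cycle, 23.5% for biogenesis regulators, 17.6% for outer membrane and import, and 33.3% for energy buffering. The 1 transcript of mitochondrial DNA measured, ND5, a membrane subunit of complex I, rose: 7998.2, 8552.9 and 6784.6 against 13153.0, 11740.4 and 13178.7 (0.71 ± 0.18, adjusted p = 0.0248). Its call was lost on leaving out any litter (adjusted p = 0.166, 0.0544 and 0.187 without litters 1, 2 and 3). The ND5 call was also lost under quantile normalization (difference 0.54, adjusted p = 0.0742). The 76 genes of mitochondrial ribosomal proteins had 18 that fell and 5 that rose, with a median of -0.25. Of 36 further assembly factors of the complexes 8 fell and 1 rose (median -0.27). Atpaf1, for ATP synthase, fell by 1.25 on the log2 scale (490.6, 565.8 and 587.5 against 214.1, 267.5 and 209.5; adjusted p = 0.00373), though its second probe set had 0.08. Sdhaf1, for complex II, fell by 1.20 (784.5, 987.9 and 957.7 against 383.9, 393.3 and 404.9; adjusted p = 0.00328). Bcs1l, which inserts the Rieske protein into complex III, rose (233.1, 297.8 and 263.8 against 606.1, 750.9 and 676.0; 1.36 ± 0.19, adjusted p = 0.00273), whereas Uqcrfs1 itself fell.

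The TCA cycle, which feeds the chain, had larger differences in single enzymes. The list of 17 genes also holds Pcx and the pyruvate dehydrogenase genes Pdha1, Pdhb and Dlat, which lie outside the cycle itself. Of the 17 genes 2 fell and 3 rose (29.4%, against 41.4% of all genes), with a median of -0.09. Suclg2, the GTP-specific succinyl-CoA ligase subunit, measured 922.3, 981.4 and 896.5 against 4563.3, 4611.3 and 4938.5, which was 5.04-fold higher (2.33 ± 0.16, adjusted p = 0.000268). Idh2, the NADP-dependent isocitrate dehydrogenase, measured 1314.5, 1044.3 and 1221.3 against 4205.2, 3328.9 and 3727.7, 3.15-fold higher (1.65 ± 0.19, adjusted p = 0.00134). Pcx, pyruvate carboxylase, rose 3.02-fold. Idh3a, of the NAD-dependent isocitrate dehydrogenase, and Pdhb, of pyruvate dehydrogenase, fell by 0.74 and 0.67 on the log2 scale. Of 16 electron carriers and other inputs to the chain 2 fell (Coq4 and Coq7, of ubiquinone synthesis, by 0.96 and 0.83) and 2 rose (Coq8a by 1.52 and Etfb, which carries electrons from fatty acid oxidation, by 1.17), with a median of 0.16.

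Regulators of mitochondrial biogenesis had 3 of 17 genes that fell and 1 that rose. Nrf1 measured 1710.1, 1578.6 and 1573.3 against 357.6, 177.9 and 298.7, which was 6.07-fold lower (-2.60 ± 0.29, adjusted p = 0.00128). Its other probe sets gave -1.41 and -0.75, which also passed, and 0.16, which did not. Ppargc1a, the coactivator PGC-1 alpha, fell on all 5 of its probe sets, the one with the highest mean log2 intensity from 1556 ± 166 to 653.6 ± 97.5 (SD, n = 3; -1.26 ± 0.19, adjusted p = 0.00414). The GABP subunits went opposite ways. Gabpb1 fell (525.7, 385.7 and 522.4 against 213.2, 142.5 and 215.0; -1.34 ± 0.25, adjusted p = 0.00889) and Gabpa rose on its brighter probe set (1630.9, 1085.5 and 1316.0 against 3171.6, 2145.9 and 2676.2; 0.99 ± 0.24, adjusted p = 0.0245), the dimmer one having 0.27. Among the 12 respiratory chain genes with the NRF1 motif in the promoter, 3 fell, as given above.

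Of 17 genes of the outer membrane and protein import 3 fell (Timm17a by 1.47, Tomm70a by 0.91 and Vdac3 by 0.55) and 0 rose, with a median of -0.05; 1 of the dimmer Tomm70a probe sets rose by 0.97. Of 6 genes of energy buffering, which move phosphate from ATP to other carriers, 2 fell. Ckb, brain creatine kinase, measured 11524.4, 11096.8 and 13809.8 against 809.0, 1101.7 and 1841.8, which was 10.2-fold lower (-3.36 ± 0.33, adjusted p = 0.000815). Ak1, cytosolic adenylate kinase, measured 5474.6, 4953.8 and 7013.6 against 351.5, 319.0 and 613.7, 14-fold lower (-3.81 ± 0.31, adjusted p = 0.000446). No respiratory chain gene had a difference of that size: the lowest was Ndufb4 at -2.20.

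**Figure D5:**
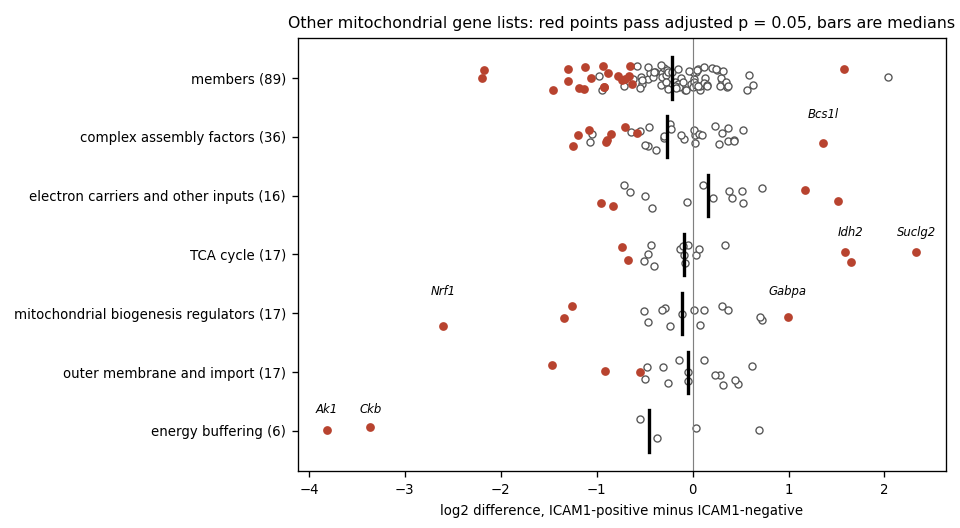
Log2 difference (ICAM1-positive minus ICAM1-negative, horizontal axis) of each gene, by list, with the list's median as a bar; red points pass an adjusted p of 0.05. The respiratory chain genes lie between -1.5 and 0.7 except Ndufb4, Cox7a1, Cox7b2 and Cox8b, while Ckb, Ak1, Nrf1 and Suclg2 lie outside that span.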

How the data were processed

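RNA of 6 sorts was measured on 6 arrays of 45101 probe sets. The authors deposited linear intensities. GCRMA is named in the submitters' processing notes. It gives log2 values with nearly the same quantiles on all arrays, whereas these intensities had unequal quantiles and a trimmed mean of 500 on every array. They were taken as linear values scaled per array, by a program not given in the sources used here. Titles and source names set the groups.

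The 64 control probe sets were left out. Values were taken to log2, probe sets with log2 intensity above 4 on at least 3 arrays were kept (38694), and differences were fitted with limma 3.58.1 (lmFit, eBayes without a trend, no block), adjusted by Benjamini-Hochberg at 0.05. The fit was tested on simulated data. A gene was represented by its kept single-symbol probe set with the highest mean over all arrays, which gave 16399 genes. Of all probe sets 34945 had 1 symbol, 932 several and 9160 none. The members and lists were chosen with earlier results of these data known, and so was the rule for named genes: arrays are given for core subunits, isoforms and the genes with the extreme called differences per complex or list. Same-numbered sorts come from the same litter per the series text, and the deviations of same-litter arrays from their group means correlated at 0.116, 0.203 and 0.092 over all genes and at 0.532, 0.793 and 0.561 over the 3365 bright genes. Alternatives were the litter block, 2 other scalings, no filter, raised low values, an intensity trend, other choices of probe set, and leaving out each litter or array. The number of arrays limits the precision.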

Additional observations from a re-analysis of the deposited data

How the results depend on the processing

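With the litter as a replicate block (pairing by litter), 8 respiratory chain genes were added to the 20 called. In all 2 rose, 25 fell, and 10 of complex I and 1 of complex II were called. Of the 20 calls 19 were kept and Cox7b2 was lost. Under quantile normalization 1 gene of complex II and 8 of complex IV were called, and the medians of complexes IV and V were -0.34 and -0.24. With each array centred on its median, 1 gene of complex III was called, and 5 of the 20 calls were lost: Ndufb1 (adjusted p = 0.0505), Ndufa8 (0.0814), Uqcrfs1 (0.059), Cox5a (0.053) and Atp5o (0.0906). With values under the array median set to that median, the median of all genes was 0. In that setting 2 respiratory chain genes rose, and more of these genes fell than in the main fit. Calls were made for 12 genes of complex I and 1 of complex II, as for 15 further assembly factors, 10 carriers, 9 TCA cycle and 6 import genes. The median of energy buffering was -0.19. With an intensity trend in eBayes, 31 respiratory chain genes fell and 2 rose, 13 of complex I, 1 of complex II and 8 of complex IV were called, as were 14 assembly factors, 9 carriers, 9 TCA cycle and 7 import genes. With the probe sets of a gene averaged, 4056 genes rose and 4353 fell in all, fewer features being tested; 2 respiratory chain genes rose, 1 of complex III was called, the medians of complex II, assembly factors and energy buffering were -0.44, -0.40 and -0.61, and Ndufb8 reversed to 0.29 through its dim probe set. Without probe sets that can match several transcripts, 2 respiratory chain genes rose, 1 of complex III was called, the median of the Ndufaf genes was -0.71, and Uqcrq reversed to 0.46. The share of all genes called was 41.4% in the main fit, 43.6% with the block and 47.1% with the intensity trend. It is not given here for quantile normalization, centred arrays or raised low values. Counts of calls in those settings therefore cannot be set against all genes. The cause of these changes was not tested, other than the probe sets named.

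With 1 litter or array left out, 3764 to 5854 probe sets rose and 3678 to 6013 fell, the median of all genes was -0.07 to -0.03, 3 to 14 respiratory chain genes fell, 0 to 1 rose and their median was -0.28 to -0.16. Calls and medians ranged from 2 to 6 and -0.40 to -0.21 in complex I, 1 to 3 and -0.69 to -0.55 in the Ndufaf genes, 0 and -0.26 to -0.12 in complex II, 0 to 2 and -0.01 to 0.15 in complex III, 0 to 4 and -0.29 to -0.15 in complex IV, and 0 to 2 and -0.24 to -0.04 in ATP synthase. They ranged from 1 to 7 and -0.39 to -0.15 in the assembly factors, 1 to 4 and 0.08 to 0.22 in the carriers, 3 to 5 and -0.14 to -0.05 in the TCA cycle, 1 to 5 and -0.19 to 0 in the regulators, 1 to 2 and -0.22 to 0.07 in import, and 2 and -0.62 to -0.22 in energy buffering. Of all the values recomputed, 377 kept their size within replicate spread or 1.5 times and 133 moved. No detection calls were used, so differences of dim probe sets (Ndufb4, Ndufb1, Cox7a1, Cox7b2 and the second one of Atp5g1, among others) have no exact size. With 3 litters, differences near or below the standard errors given could not be told from 0. Some well above them did not pass either, such as that of Sdhb (-0.53 ± 0.16).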
